A study of Mus musculus with 15 samples.

Results

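The genes described here encode the translation initiation factors of the mouse. They are the genes of the deposited table whose symbol begins with Eif and a digit, without the eIF2 kinases (Eif2ak), the eIF4E-binding proteins (Eif4ebp) and pseudogenes, and 48 of the 22507 genes in the table met this rule. Total RNA came from the mouse neuroblastoma line N2a at day 3, and every culture was transfected with an siRNA (50 nM) together with a plasmid. The 15 libraries formed 5 groups of 3: control (control siRNA and control plasmid), knockdown (siRNA against Opa1 and control plasmid), and siRNA against Opa1 with a plasmid for wild-type OPA1, for OPA1-V560F or for OPA1-V465F. The last 4 groups thus share the siRNA against Opa1. Opa1 encodes the mitochondrial GTPase that fuses inner membranes and shapes cristae. The labels give neither the species of the plasmid insert nor the share of cells that took it up. Nor do they say that the 3 libraries of a group are separate cultures: p-values then reflect only how far these libraries spread, and that spread may be technical.

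Initiation brings a ribosome to the start codon of an mRNA. A carrier complex, eIF2, delivers the initiator tRNA to the small ribosomal subunit together with eIF1, eIF1A and the large scaffold eIF3, and the cap-binding complex of eIF4E, eIF4G and the helicase eIF4A brings in the mRNA. After the start codon is found, eIF5 and eIF5B let the large subunit join, and eIF2B recharges eIF2 with GTP, the step that the integrated stress response slows. The response is known to be set off by mitochondrial damage, through phosphorylation of eIF2 rather than through the amount of its mRNA, and phosphorylation is not seen in these data.

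Deposited counts totalled 20070123 to 27809960 per library. Of the 48 genes, 46 had enough counts to be tested, and the lowest count of any of these in any library was 245. Eif2c5, listed as non-coding and named for an earlier name of the Argonaute family, reached at most 4 counts, and Eif4e1b, a relative of the cap-binding protein eIF4E, reached at most 2, so neither was tested. Opa1 itself stood at 90.1, 98.1 and 99.2 CPM (read counts relative to the library total, scaled between libraries by the TMM method) in control and at 33.9, 38.1 and 38.5 CPM in knockdown, a log2 fold change of -1.38 ± 0.0834 (SE; quasi-likelihood test of edgeR, p adjusted by Benjamini-Hochberg = 8.53e-10). Opa1 was at 29.5 to 33.9 CPM in wild-type OPA1, 27.3 to 35.7 CPM in V560F and 33.4 to 34.7 CPM in V465F. None of these groups was above knockdown, so no expression from a plasmid shows in the Opa1 counts. Whether reads of the insert would be counted there is not known. Of 12 marker genes of the sympathetic neuroblast, 11 were at 1 FPKM (a level per transcript length and library total) or more in every library. Of 12 markers of blood, vessel, connective, glial, epithelial and muscle cells, 2 were at that level in every library (Pecam1 and Mbp). Those 12 together summed to 4.43 to 8.18 FPKM.

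By the test of counts, most initiation factor mRNAs were higher in the knockdown than in control, and higher with V560F or V465F than with wild-type OPA1. In the knockdown, 32 of the 46 tested genes rose against control and 1 fell, where 19.9% of all 13074 tested genes were called higher and 16.0% lower. Against wild-type OPA1, 34 rose and 1 fell with V560F, against 24.5% and 24.9% of all genes, and 29 rose and 2 fell with V465F, against 18.1% and 20.0% of all genes. A call here means an adjusted p under 0.05. The changes were small: the median log2 fold change of the 46 genes was 0.27 in the knockdown, 0.40 with V560F and 0.26 with V465F, beside 0.01, -0.02 and -0.02 over all tested genes. Highly expressed genes in general rose too. For the 23 members with a mean of 50 FPKM or more the medians were 0.32, 0.53 and 0.36. Over all 1164 genes at that level they were 0.26, 0.42 and 0.30. On the deposited FPKM scale, which also lowers the median of all genes, fewer were called (limma on log2(FPKM + 1)): 17 rose and 3 fell in the knockdown, 19 rose and 5 fell with V560F, and 17 rose and 5 fell with V465F. Of all 13074 genes, 1038 rose and 3577 fell on that scale in the knockdown, 1254 and 5807 with V560F, and 972 and 4297 with V465F. With only genes of 5 FPKM in 3 libraries, 20 rose and 2 fell in the knockdown. Library 2 of V560F and library 3 of wild-type OPA1 had the highest share of counts in these genes within their groups, at 1.72% and 1.54%; without both, 34 members rose and 2 fell in the knockdown, 35 rose and 1 fell with V560F, and 32 rose and 2 fell with V465F. The comparisons with V560F and V465F share the wild-type libraries, and the wild-type and knockdown comparisons share the knockdown libraries, so they are not independent of each other. In bulk RNA, fewer cells of a type and less RNA per cell cannot be told apart.

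**Figure D1:**
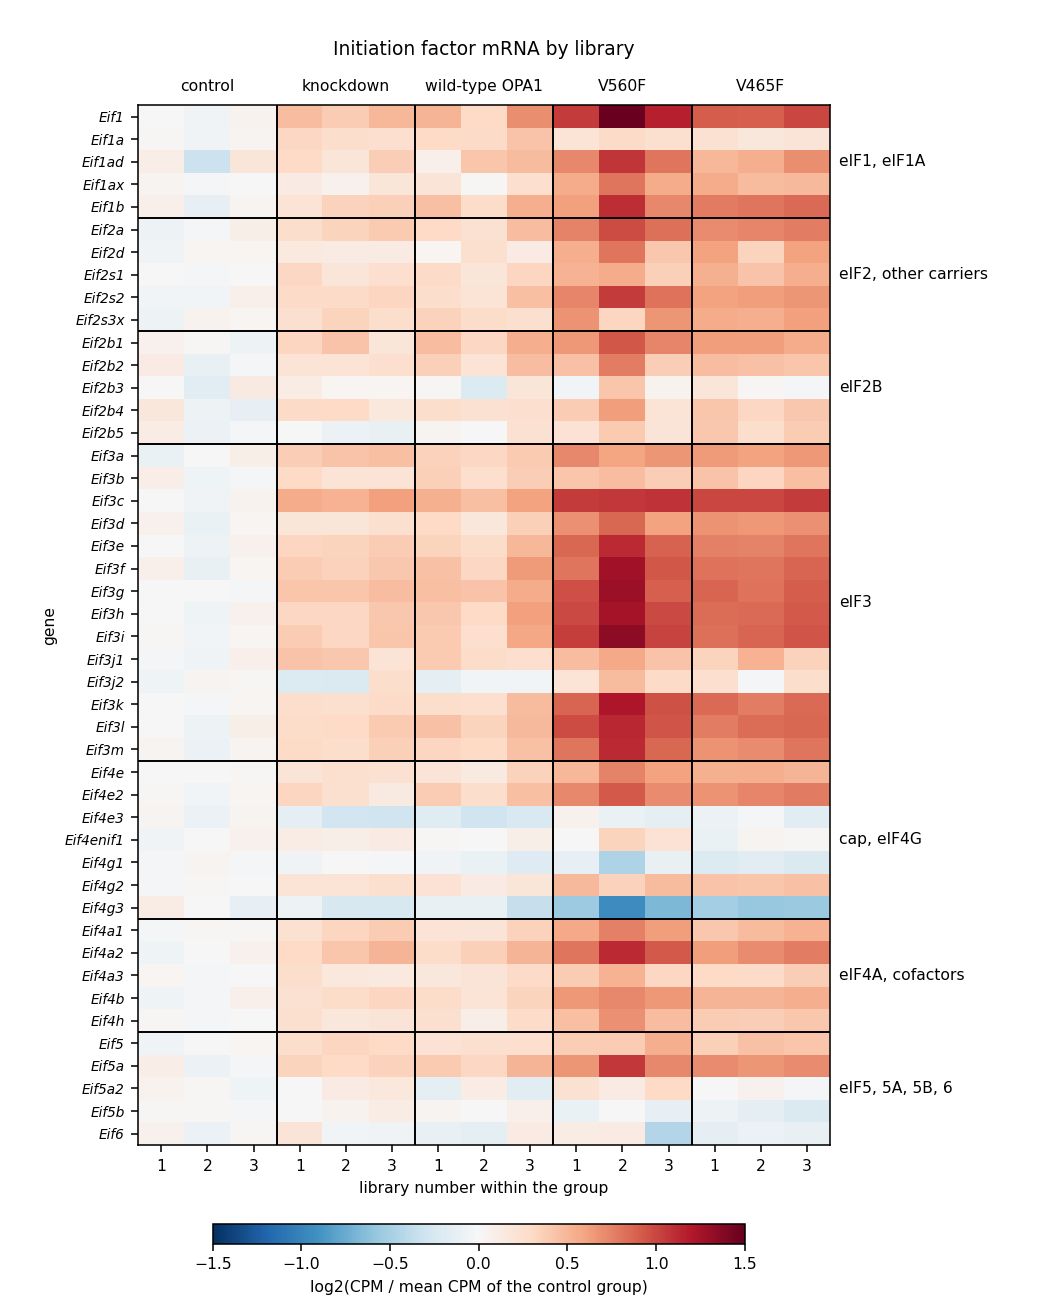
Heatmap of the 46 tested initiation factor genes (rows, by role) in the 15 libraries (columns), coloured by the log2 ratio of CPM to the control group's mean CPM. Most eIF3 genes are red in all 3 libraries of V560F and V465F, where Eif4g3 is blue, and V560F library 2 holds the darkest cells of Eif1 and of most eIF3 genes.

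Wild-type OPA1 against knockdown called 0 of the 46 genes higher and 0 lower, as did the whole table (0.0% and 0.0% of 13074 genes). An unadjusted p under 0.05 in edgeR was reached by 0 of the 46 and by 1157 of the 13074. DESeq2 and limma also called 0 of the 46. The log2 fold changes ran from -0.15 for Eif5a2 to 0.15 for Eif2b5, and the lowest and highest ends of their 95% intervals were -0.33 and 0.34. Over all 5 groups together, 42 of the 46 genes differed (any difference among the groups, edgeR quasi-likelihood F test), where 71.4% of all tested genes did. The genes not called there were Eif2b3, Eif4enif1, Eif5a2 and Eif6. By group means, control was the lowest group for 37 of the 46 genes and V560F the highest for 37 of the 46. The same count was not made over all tested genes, so this order cannot be called particular to the members. The 48 genes together took 1.33 to 1.35% of all counts in the control libraries, 1.48 to 1.50% in knockdown, 1.45 to 1.54% in wild-type OPA1, 1.63 to 1.65% in V465F and 1.66 to 1.72% in V560F. Knockdown and wild-type libraries overlapped in that share, and each of the other neighbours in this order was separated, with no overlap between libraries.

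**Figure D2:**
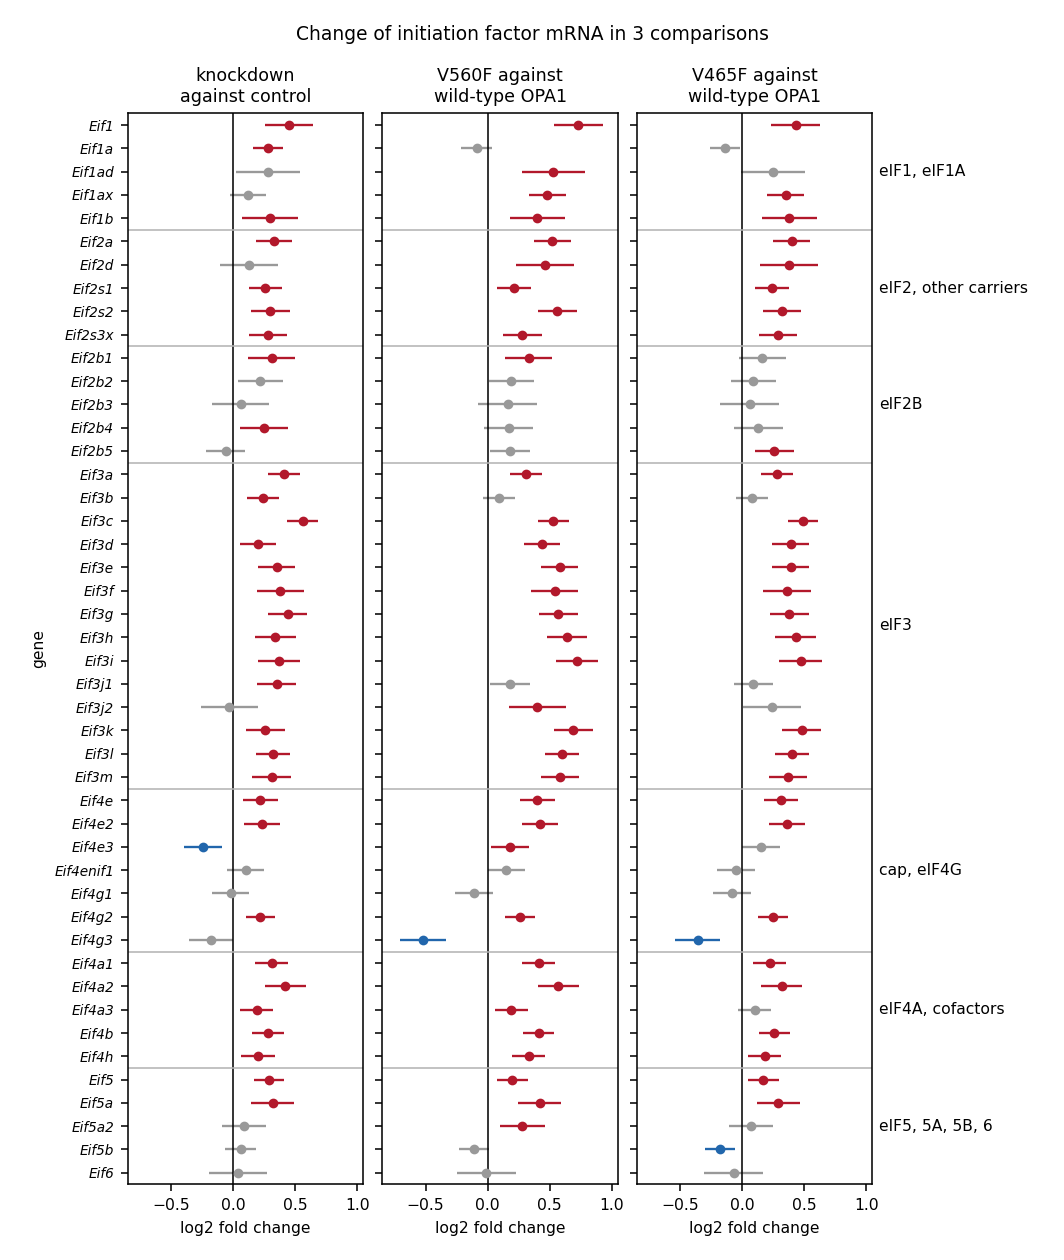
Log2 fold change (points, x axis) with its 95% interval (bars) for each tested initiation factor gene (y axis, by role) in the knockdown against control and in each mutant against wild-type OPA1, from the edgeR fit; red marks genes called higher, blue genes called lower and grey genes not called. Most points lie to the right of 0, with Eif4e3 called lower in the knockdown and Eif4g3 in both mutants.

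The group of scanning and start codon choice held 5 genes, Eif1ad among them by its name only. Of these, 3 rose in the knockdown, 4 with V560F and 3 with V465F, and 0 fell. On the FPKM scale 2, 2 and 3 were called higher and 0, 1 and 1 lower, the latter Eif1a. Eif1, which guards against starting at a wrong codon, was at 925, 897 and 961 CPM in control, 1275, 1209.8 and 1310.5 CPM in knockdown, and 1324, 1137 and 1507 CPM in wild-type OPA1. With V560F it was at 1924, 2589.5 and 2089 CPM and with V465F at 1740.1, 1728 and 1861 CPM. Each group lay above control without overlap, both mutants lay above wild type, and library 2 of V560F was the highest of all. Eif1 rose by 0.45 ± 0.0948 on the log2 scale in the knockdown (edgeR adjusted p = 0.00115), by 0.73 ± 0.0951 with V560F (adjusted p = 2.78e-06) and by 0.43 ± 0.0948 with V465F (adjusted p = 0.00134). With a correction for transcript length and GC content these values for Eif1 were 0.32, 0.39 and 0.20.

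The genes Eif1a and Eif1ax, which both encode eIF1A, behaved differently. Eif1a rose in the knockdown by 0.28 ± 0.059 (edgeR adjusted p = 0.00126) and was not called in the mutants, at -0.09 ± 0.0592 with V560F and -0.14 ± 0.0591 with V465F (edgeR adjusted p = 0.196 and 0.0614); with the length and GC correction it was called lower in both, at -0.16 and -0.16 (adjusted p = 0.0157 and 0.0219). Eif1ax was not called in the knockdown (0.12 ± 0.0718, edgeR adjusted p = 0.186) and rose with V560F by 0.48 ± 0.0719 and with V465F by 0.35 ± 0.0718 (edgeR adjusted p = 1.19e-05 and 0.000667). Per length, Eif1ax made up 61.6 ± 0.688% of the summed FPKM of the pair in control (SD, n = 3), 58.5 ± 1.48% in wild-type OPA1, 67.7 ± 1.63% in V560F and 66.5 ± 0.178% in V465F, and all 6 mutant libraries lay above all 3 wild-type libraries.

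Among the carriers of the initiator tRNA, 4 of 5 genes rose in the knockdown and 5 of 5 with each mutant, with medians of 0.28, 0.46 and 0.32. On the deposited FPKM scale 2 of 5 were called higher in each comparison, with medians of 0.13, 0.09 and 0.12. Eif2s1 encodes eIF2 alpha, the subunit that stress kinases phosphorylate. It was at 123, 121 and 124 CPM in control and at 153, 139.8 and 147 CPM in knockdown, without overlap. It was at 149.7, 139 and 154 CPM in wild-type OPA1, 176, 181 and 157 CPM in V560F and 178, 165 and 180 CPM in V465F, and both mutant groups lay above wild type without overlap. Its rise was 0.26 ± 0.0657 in the knockdown, 0.21 ± 0.0657 with V560F and 0.24 ± 0.0656 with V465F (edgeR adjusted p = 0.00414, 0.00965 and 0.0061). The V560F call of Eif2s1 was lost with the length and GC correction (0.14, adjusted p = 0.0558) and without wild-type library 2 (0.17, adjusted p = 0.0611), and on the FPKM scale none of its calls held: the knockdown, V560F and V465F differences of Eif2s1 were 0.11, -0.05 and 0.07 (limma adjusted p = 0.114, 0.473 and 0.308). Eif2s2, for eIF2 beta, had the highest FPKM of the role. It was at 293, 294 and 319 CPM in control, 368, 369 and 379 CPM in knockdown and 364, 348 and 412 CPM in wild-type OPA1. It was at 501, 625 and 533 CPM in V560F and 460, 467 and 476 CPM in V465F, so that both mutants lay above wild type and the knockdown above control without overlap. Eif2s2 rose by 0.30 ± 0.0754, 0.56 ± 0.0755 and 0.32 ± 0.0754 in the knockdown, V560F and V465F comparisons (edgeR adjusted p = 0.00396, 4.05e-06 and 0.0021). Eif2s3x, for eIF2 gamma, rose by 0.28 ± 0.075 in the knockdown, 0.28 ± 0.075 with V560F and 0.29 ± 0.0749 with V465F (edgeR adjusted p = 0.00668, 0.00416 and 0.00454). V560F library 2, at 140.4 CPM, overlapped the wild-type libraries, at 132 to 142 CPM. On the FPKM scale each of these calls of Eif2s3x was lost. Its V560F call was also lost with only the 6 libraries compared. With only genes of 5 FPKM in 3 libraries, its knockdown and V560F calls were lost.

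The complex eIF2B recharges eIF2. Of its 5 genes, 2 rose in the knockdown (Eif2b1 and Eif2b4), 1 with V560F (Eif2b1) and 1 with V465F (Eif2b5), and 0 fell. The knockdown call of Eif2b4 was lost without control library 2 or 3 or knockdown library 1 or 2. That of Eif2b1 was lost without knockdown library 2, and the V465F call of Eif2b5 without wild-type library 1 or 2. On the FPKM scale none of these calls held, and Eif2b5 was called lower in the knockdown. Eif2b2, the gene of this complex with the highest FPKM, was at 63.8, 54.0 and 57.8 CPM in control, 67.2, 67.7 and 69.6 CPM in knockdown and 74.7, 67.7 and 80.6 CPM in wild-type OPA1. It was at 79.6, 99.8 and 75.5 CPM in V560F and 80.6, 79.3 and 78.2 CPM in V465F. The mutant and wild-type libraries overlapped, and Eif2b2 was not called in any of these comparisons: the log2 differences were 0.22 ± 0.0876 in the knockdown, 0.19 ± 0.0874 with V560F and 0.09 ± 0.0873 with V465F (edgeR adjusted p = 0.0525, 0.0712 and 0.417). With the length and GC correction Eif2b2 was called higher in the knockdown (0.16, adjusted p = 0.0335). The median of the complex was 0.22, 0.18 and 0.13 in these comparisons, and on the deposited FPKM scale it was 0.08, -0.08 and -0.04.

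Most genes of eIF3, the scaffold that holds the initiation machinery on the small ribosomal subunit, moved together. Of 14 genes, 13 rose in the knockdown, 12 with V560F and 11 with V465F, and 0 fell, with medians of 0.35, 0.56 and 0.39. On the deposited FPKM scale those medians were 0.19, 0.29 and 0.22, with 9, 10 and 10 genes called higher and 0, 1 and 0 called lower. Without V560F library 2 and wild-type library 3, 13, 12 and 12 of the 14 rose and 0 fell. The knockdown call of Eif3d was lost without control library 2 or 3 or any 1 of the knockdown libraries. With only genes of 5 FPKM in 3 libraries, the knockdown calls of Eif3b, Eif3d and Eif3k were lost. On the FPKM scale those of Eif3b, Eif3d, Eif3j1 and Eif3k were lost.

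Eif3c, a core subunit, was the member with the largest rise in the knockdown. It was at 491, 469 and 505 CPM in control, 715, 699 and 747 CPM in knockdown and 707, 669.8 and 739.6 CPM in wild-type OPA1. V560F libraries were at 1012, 1016 and 1032 CPM and V465F libraries at 979.8, 974 and 1011 CPM. The levels formed 3 tiers, with control lowest, knockdown and wild type overlapping each other, and the mutants highest. Eif3c rose by 0.56 ± 0.0589 in the knockdown (1.48-fold, edgeR adjusted p = 1.47e-06), by 0.53 ± 0.0588 with V560F (adjusted p = 5.55e-07) and by 0.49 ± 0.0588 with V465F (adjusted p = 3.75e-06), and correction for length and GC content left 0.55, 0.50 and 0.47.

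Eif3i, Eif3k and Eif3h encode subunits with shorter transcripts. Eif3i was at 207, 188 and 237 CPM in wild-type OPA1, 325, 400.1 and 319 CPM in V560F and 279, 289 and 304 CPM in V465F, with no overlap between the mutants and wild type. It rose by 0.72 ± 0.0832 with V560F and 0.47 ± 0.0831 with V465F (edgeR adjusted p = 8.41e-07 and 0.000206), and with the length and GC correction by 0.32 and 0.20. Eif3k was at 194, 192 and 223 CPM in wild-type OPA1, 296, 374 and 311 CPM in V560F and 289, 273 and 290 CPM in V465F, and rose by 0.69 ± 0.0755 and 0.48 ± 0.0753 (edgeR adjusted p = 5.16e-07 and 5.47e-05). Eif3h, the eIF3 gene with the highest FPKM, was at 617, 587 and 642 CPM in control, 765, 763 and 815 CPM in knockdown and 813, 756 and 940.4 CPM in wild type. In V560F it was at 1226, 1461 and 1227 CPM and in V465F at 1102, 1113 and 1166 CPM, above all wild-type libraries. Eif3h rose by 0.34 ± 0.0789 in the knockdown, 0.64 ± 0.079 with V560F and 0.43 ± 0.0789 with V465F (edgeR adjusted p = 0.00218, 1.73e-06 and 0.000262). Eif3g, an RNA-binding subunit, was at 86.5, 86.5 and 85.1 CPM in control and 115, 115 and 119 CPM in knockdown, and rose there by 0.44 ± 0.0764 (edgeR adjusted p = 0.000211). The length and GC correction moved the V560F value of these short transcripts by more than that of Eif3c: Eif3g went from 0.57 to 0.21 and Eif3k from 0.69 to 0.35.

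The eIF3 genes that were not called differed by comparison. Eif3b, another core subunit, rose in the knockdown (0.24 ± 0.0624, edgeR adjusted p = 0.00598) and was at 0.09 ± 0.0624 with V560F and 0.08 ± 0.0624 with V465F (edgeR adjusted p = 0.236 and 0.343). Eif3j1 and Eif3j2 encode the loosely bound subunit eIF3j from gene copies whose longest open reading frames were identical at 786 of 786 aligned bases in GENCODE M21, so reads may be split between them and neither value is certain. In knockdown library 3, Eif3j1 was at 46.7 CPM beside 54.5 and 53.8 CPM in the other libraries, while Eif3j2 was at 32.8 CPM beside 23.7 and 23.5 CPM.

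**Figure D3:**
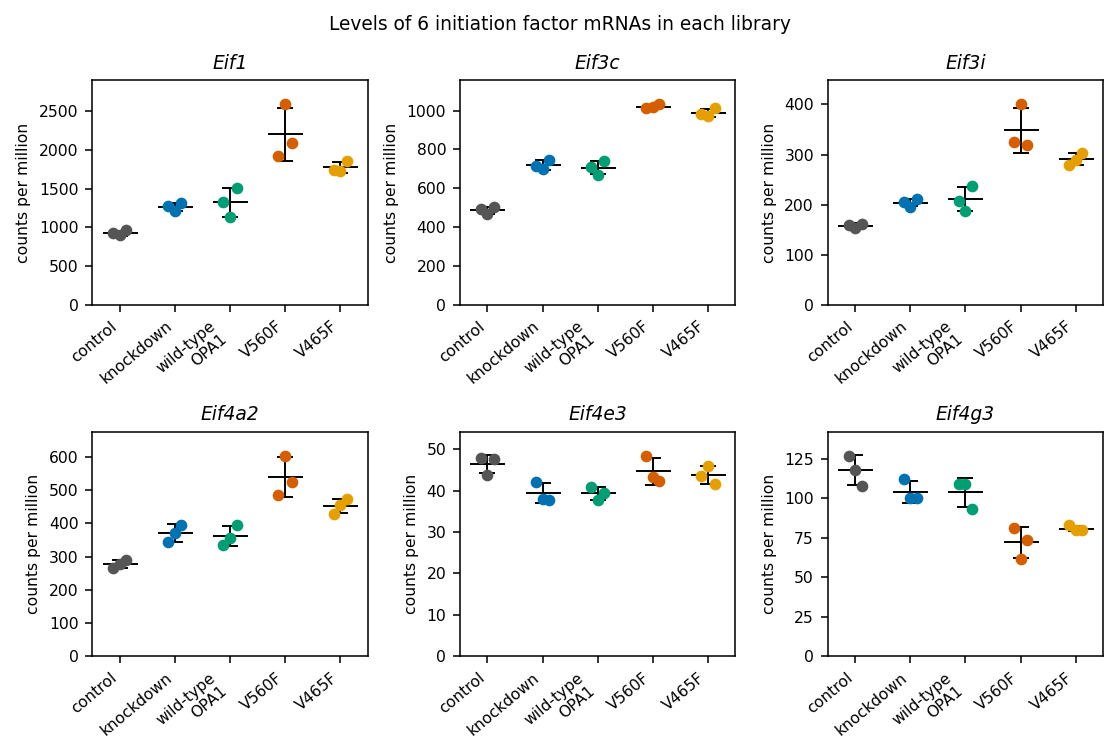
CPM (y axis, from 0) of 6 initiation factor genes in each library, with points for the 3 libraries of each group on the x axis and black marks for the mean ± SD. Eif1, Eif3c, Eif3i and Eif4a2 are highest in the mutant groups; Eif4g3 is lowest there, at 61.4 to 82.9 CPM, and Eif4e3 is lower in knockdown than in control.

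The group of cap binding and the eIF4G scaffold held genes called in both directions. It also holds Eif4e2 and Eif4enif1, so it is wider than the complex of eIF4E, eIF4G and eIF4A. Of 7 tested genes, 3 rose and 1 fell in the knockdown, 4 rose and 1 fell with V560F, and 3 rose and 1 fell with V465F; the medians of 0.10, 0.18 and 0.15 became -0.04, -0.07 and -0.01 on the deposited FPKM scale. Eif4e encodes the protein that grips the cap. It was at 148, 149.7 and 151 CPM in control, 171, 176 and 174 CPM in knockdown and 169.8, 163 and 189 CPM in wild-type OPA1. V560F libraries were at 209.6, 250 and 227 CPM and V465F libraries at 216, 218 and 213 CPM, above all wild-type libraries. Eif4e rose by 0.22 ± 0.0668 in the knockdown, 0.40 ± 0.0668 with V560F and 0.31 ± 0.0668 with V465F (edgeR adjusted p = 0.0149, 4.58e-05 and 0.00104), and the knockdown call was lost without knockdown library 2 (0.21, adjusted p = 0.0514) and on the FPKM scale (0.07, limma adjusted p = 0.286).

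Eif4e3, a cap-binding relative of eIF4E, was the member that fell in the knockdown. It was at 47.8, 43.8 and 47.6 CPM in control and 42.1, 37.9 and 37.8 CPM in knockdown, with no overlap. The fall was -0.24 ± 0.0732 (edgeR adjusted p = 0.0142), and the call was lost without control library 1 (-0.22, adjusted p = 0.0536), without knockdown library 2 (-0.22, adjusted p = 0.0619) or without knockdown library 3 (-0.21, adjusted p = 0.0656). In GENCODE M21, 14.8% of the exonic bases of Eif4e3 are shared with another gene on the same strand, Gm20696. With V560F Eif4e3 rose by 0.18 ± 0.0746 against wild type (edgeR adjusted p = 0.0454), a call that was lost without V560F library 1 (0.12, adjusted p = 0.217) or without any 1 of the wild-type libraries (0.15 to 0.21, adjusted p = 0.0503 to 0.154). With the length and GC correction Eif4e3 was called higher with V560F (0.34, adjusted p = 0.000409) and with V465F (0.25, adjusted p = 0.00858), and on the FPKM scale the V560F difference was -0.07.

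The scaffold genes of the eIF4G family went in different directions. Eif4g3 was at 127, 118 and 108 CPM in control, 112, 100.2 and 100 CPM in knockdown and 109, 109 and 93.2 CPM in wild-type OPA1, and these groups overlapped. With V560F it was at 81.2, 61.4 and 73.8 CPM and with V465F at 82.9, 79.7 and 80.1 CPM, below every other library. Eif4g3 fell by 0.52 ± 0.0882 on the log2 scale with V560F (edgeR adjusted p = 4.46e-05) and by 0.36 ± 0.0875 with V465F (adjusted p = 0.00269). After the length and GC correction the values were -0.28 and -0.23 (adjusted p = 0.0011 and 0.00833).

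Eif4g2 encodes a shorter relative that lacks the part which binds eIF4E. Its libraries were at 857, 885 and 879 CPM in control, 1010.3, 1011 and 1029 CPM in knockdown and 1019, 954 and 989 CPM in wild-type OPA1. They were at 1220, 1115 and 1215 CPM in V560F and 1175, 1169 and 1187 CPM in V465F, above wild type without overlap. Eif4g2 rose by 0.22 ± 0.0576, 0.26 ± 0.0576 and 0.25 ± 0.0576 in the knockdown, V560F and V465F comparisons (edgeR adjusted p = 0.00575, 0.000714 and 0.00157). On the FPKM scale the differences of Eif4g2 were 0.07, 0.00 and 0.09, none of them called, and with the length and GC correction 0.24, 0.41 and 0.34. Eif4g1, the main scaffold, was not called, at -0.02 ± 0.0733, -0.11 ± 0.0736 and -0.08 ± 0.0735 (edgeR adjusted p = 0.824, 0.22 and 0.422). Of the family's summed FPKM, Eif4g2 made up 55.8 ± 0.585% in control (SD, n = 3), 60.2 ± 0.376% in knockdown, 60.8 ± 1.41% in wild type, 67.6 ± 1.84% in V560F and 66.7 ± 0.54% in V465F. Eif4g1 went from 38.3 ± 0.386% in control to 29.2 ± 1.67% in V560F and Eif4g3 from 5.94 ± 0.519% to 3.25 ± 0.236%. The transcript of Eif4g3, at 9814 bases, is among the longest of the set, and shares between genes of unlike length move with a trend along length.

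**Figure D4:**
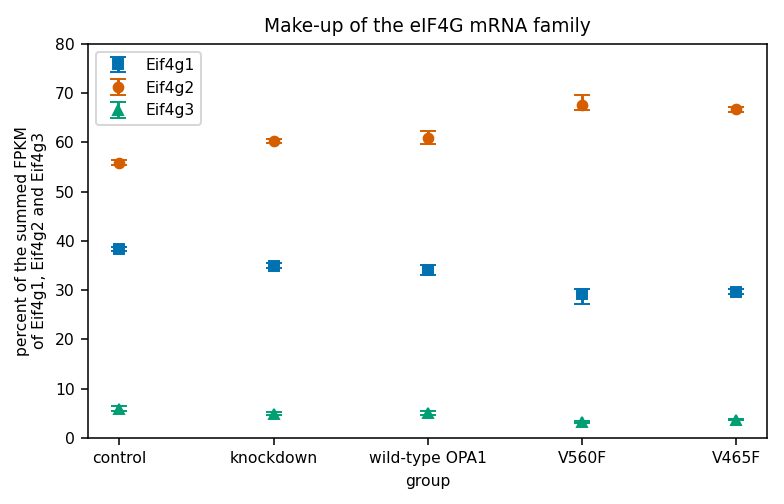
Share of the summed FPKM of Eif4g1, Eif4g2 and Eif4g3 that each gene made up (y axis, percent, from 0) in the 5 groups (x axis), as the mean of 3 libraries with bars from the lowest to the highest library. The share of Eif4g2 is above 66% in both mutants and that of Eif4g3 under 4%.

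The group of the helicase eIF4A and its helpers held Eif4a1, Eif4a2, Eif4b, Eif4h and, by its name only, Eif4a3. Each of these 5 genes rose in the knockdown and with V560F, and all but Eif4a3 rose with V465F, with medians of 0.28, 0.41 and 0.22. Both calls of Eif4a3 were lost with the length and GC correction and on the FPKM scale. Its knockdown call was also lost without control library 2 or 3 or knockdown library 1. Its V560F call was also lost without V560F library 2 or wild-type library 1 or 2. The V465F call of Eif4h was lost without wild-type library 1 or 2 or any 1 of the V465F libraries. The knockdown call of Eif4h was lost without control library 2 or knockdown library 1 or 3. On the FPKM scale every call of Eif4h was lost. On the deposited FPKM scale 3, 3 and 0 of the 5 were called higher, with medians of 0.13, 0.14 and 0.05. Eif4a2 was at 265, 277 and 290.1 CPM in control, 343, 372 and 396 CPM in knockdown and 336, 356 and 396 CPM in wild-type OPA1. It was at 486, 604 and 526 CPM in V560F and 429, 455 and 473 CPM in V465F, above all wild-type libraries. Eif4a2 rose by 0.42 ± 0.0795 in the knockdown, 0.57 ± 0.0795 with V560F and 0.32 ± 0.0794 with V465F (edgeR adjusted p = 0.000485, 5.79e-06 and 0.00314), and length and GC correction left 0.42, 0.63 and 0.38. On the FPKM scale the V465F call of Eif4a2 was lost (0.15, limma adjusted p = 0.0546). Eif4a1, its close relative, rose by 0.31 ± 0.0652, 0.41 ± 0.0652 and 0.22 ± 0.0652 (edgeR adjusted p = 0.00112, 2.72e-05 and 0.0115). The V465F call of Eif4a1 was lost with the length and GC correction (0.07, edgeR adjusted p = 0.237). It was also lost without wild-type library 1 or 2 or V465F library 3, and on the FPKM scale. The longest open reading frames of the pair matched at 78.1% of aligned bases, and Eif4a1 made up 66.8 ± 0.719% of their summed FPKM in control (SD, n = 3), 64.7 ± 0.829% in wild type, 62.1 ± 1.02% in V560F and 63.0 ± 0.193% in V465F. Eif4b, which stimulates the helicase, had the most counts of all members. It was at 1508, 1563 and 1659 CPM in control, 1847, 1915 and 1972 CPM in knockdown and 1903, 1812 and 1993 CPM in wild type. It was at 2475, 2605 and 2478 CPM in V560F and 2252, 2254 and 2308 CPM in V465F, which placed both mutants above wild type. Eif4b rose by 0.28 ± 0.0615, 0.41 ± 0.0616 and 0.26 ± 0.0615 in the 3 comparisons (edgeR adjusted p = 0.00164, 1.49e-05 and 0.00251), and on the FPKM scale the V465F call of Eif4b was lost (0.09, limma adjusted p = 0.0868).

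The group of subunit joining and eIF5 to eIF6 held Eif5, Eif5a, Eif5a2, Eif5b and Eif6, not all of them factors of the last steps of initiation. Of these, 2 rose in the knockdown (Eif5 and Eif5a), 3 with V560F (Eif5, Eif5a and Eif5a2) and 2 with V465F (Eif5 and Eif5a), where 1 fell (Eif5b). The V465F call of Eif5 was lost without wild-type library 1 or 2 or V465F library 2 or 3. With V560F, the call of Eif5 was lost without V560F library 3 and that of Eif5a2 without wild-type library 1. On the FPKM scale every call of Eif5 and Eif5a2 was lost. The medians of 0.09, 0.20 and 0.07 became -0.05, -0.06 and -0.08 on the deposited FPKM scale. Eif5a encodes a factor that carries hypusine, a modified lysine, and acts mainly in elongation. It was at 347, 303 and 319.7 CPM in control, 406, 397 and 409 CPM in knockdown and 423, 399 and 461 CPM in wild type. V560F libraries were at 512, 673 and 532 CPM and V465F libraries at 529, 510.2 and 526 CPM, above wild type. Eif5a rose by 0.32 ± 0.083, 0.42 ± 0.0829 and 0.29 ± 0.0829 (edgeR adjusted p = 0.0048, 0.000245 and 0.00904), and the V465F call was lost without wild-type library 2 (0.24, adjusted p = 0.0552). On the FPKM scale both mutant calls of Eif5a were lost, at 0.15 with V560F and 0.12 with V465F (limma adjusted p = 0.0589 and 0.149). Eif5b, the GTPase that joins the subunits, was at 224, 218 and 229 CPM in wild type, 204, 219.6 and 199.8 CPM in V560F and 207, 198 and 188 CPM in V465F. Its log2 level fell with V465F by 0.18 ± 0.0592 (edgeR adjusted p = 0.0199). That call was lost with the length and GC correction (-0.09, adjusted p = 0.323) and without wild-type library 1 or 3 or V465F library 2 or 3 (-0.18 to -0.14, adjusted p = 0.0501 to 0.111). In GENCODE M21, 16.8% of the exonic bases of Eif5b overlap Rev1 on the opposite strand, whose reads cannot be told apart without strand.

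Between the mutants, 0 of the 46 genes were called (0.0% of all tested genes were called higher and 0.00765% lower, which is 1 gene), and DESeq2 also called 0 of the 46. Values at an unadjusted p under 0.05 in edgeR numbered 16 of 46, beside 2373 of all 13074 genes, and each of the 16 was lower with V465F. V465F was below V560F for 41 of the 46 genes, with a median of -0.10 beside -0.02 over all genes. This did not hold on the deposited FPKM scale, where 24 of the 46 were higher with V465F and the median was 0.00 beside 0.05 over all genes. Without V560F library 2 the median of the 46 was -0.05, and 12 were higher with V465F. The largest difference was that of Eif1, at -0.31 ± 0.0947 (edgeR adjusted p = 0.149), for which the 3 libraries of each group did not overlap. Without V560F library 1, 7 genes were called lower with V465F: Eif1, Eif2s2, Eif3i, Eif3k, Eif3m, Eif4a2 and Eif4enif1. Over the whole table, that setting called 325 genes higher and 509 lower. With no filter on low counts, 4 members were called lower: Eif1, Eif2s2, Eif3i and Eif4a2. Over the whole table, 243 genes were then called higher and 337 lower.

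Fold changes of the members followed transcript length and level, as did those of all genes. Length here is that by which the authors' FPKM was divided. Across the 46 genes, Spearman's rho of the log2 fold change with length was -0.47 in the knockdown, -0.47 with V560F and -0.41 with V465F, beside -0.22, -0.44 and -0.35 over all tested genes; with mean FPKM it was 0.62, 0.58 and 0.60, beside 0.49, 0.41 and 0.36. These genes share the same libraries and are no replicates. Among the 14 members under 2000 bases, 12 rose with V560F, beside 48.3% of the 2865 genes of that length. Their median was 0.58, beside 0.33 for those genes. The 22 members from 2000 to 5000 bases had a median of 0.33, beside -0.01 for all genes of that length. There 15 were called higher, beside 23.5% of all genes. The 10 members of 5000 bases or more had a median of 0.27, beside -0.25. Of these, 7 were called higher, beside 10.3% of all genes of that length, and 1 was called lower. In the knockdown, the medians of the same classes were 0.32, 0.28 and 0.11 beside 0.14, 0.00 and -0.07, and with V465F 0.38, 0.25 and 0.20 beside 0.22, -0.02 and -0.16.

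**Figure D5:**
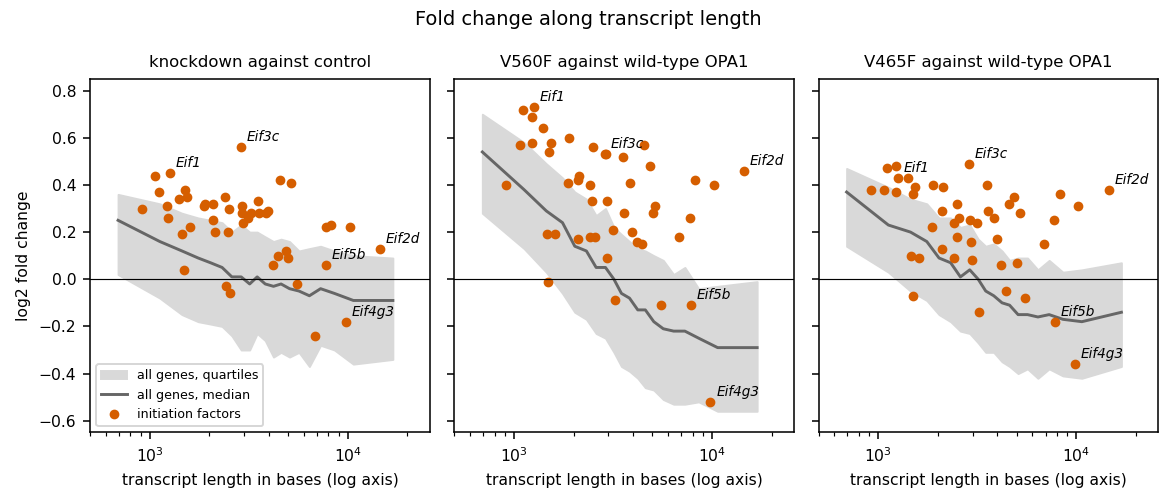
Log2 fold change (y axis) along transcript length (x axis, log scale) in 3 comparisons, with points for the 46 initiation factor genes and the median and quartiles of all tested genes in 20 length classes as a line and a band. The members lie mostly above the line at every length, and Eif4g3 lies below 0 in each panel.

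High expression went with a rise in all genes. Of the 1164 genes with a mean of 50 FPKM or more, 68.1% were called higher in the knockdown, 83.7% with V560F and 73.6% with V465F, and of the 23 members at that level 95.7%, 91.3% and 87.0%. The medians at that level were 0.26, 0.42 and 0.30 over all genes and 0.32, 0.53 and 0.36 over the members. With the length and GC correction 31 members rose and 1 fell in the knockdown, 31 rose and 2 fell with V560F, and 27 rose and 2 fell with V465F, with medians of 0.24, 0.28 and 0.20. The correction does not model the trend with level, and the part of that trend in the members' values was not tested.

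Several initiation factor mRNAs are known to begin with a run of pyrimidines, the element through which mTOR signalling sets their translation. A tract was taken as a C followed by at least 4 letters that are C or T, read on the sense strand of RefSeq starts (GRCm38.p6), with overlapping tracts joined. A start sequence was given for 37 of the 46 tested members. Read from a C at the annotated start itself, 2 of these held a tract (5.41%; Eif2s3x and Eif3f), beside 3.18% of 10341 tested genes. Read from a C within 5 bases of the start, 9 did (24.3%), beside 23.7%. Below are 20 bases before and 20 from the start, with those tracts in capitals, for genes with such a tract (Eif3f, Eif2s3x, Eif3l, Eif4g1) and for genes that moved most with none (Eif1, Eif3c, Eif3k, Eif4a2, Eif4g3).
Eif3f (chr7:108934395-108934434, plus strand): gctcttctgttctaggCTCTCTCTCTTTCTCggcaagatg
Eif2s3x (chrX:94212632-94212671, minus strand): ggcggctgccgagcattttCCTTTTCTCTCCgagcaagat
Eif3l (chr15:79075203-79075242, plus strand): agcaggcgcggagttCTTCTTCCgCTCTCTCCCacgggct
Eif4g1 (chr16:20672707-20672746, plus strand): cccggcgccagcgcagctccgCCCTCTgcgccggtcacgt
Eif1 (chr11:100319929-100319968, plus strand): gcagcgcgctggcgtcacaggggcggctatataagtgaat
Eif3c (chr7:126566347-126566386, minus strand): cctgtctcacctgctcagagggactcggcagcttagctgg
Eif3k (chr7:28981869-28981908, minus strand): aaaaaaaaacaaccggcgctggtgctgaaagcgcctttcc
Eif4a2 (chr16:23107448-23107487, plus strand): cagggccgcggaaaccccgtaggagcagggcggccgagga
Eif4g3 (chr4:137993435-137993474, plus strand, the first of 2 starts listed): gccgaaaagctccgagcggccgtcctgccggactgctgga
Of the 9 members with a tract, 4 rose with V560F (24.5% of all tested genes rose): Eif1ad by 0.53, Eif2s3x by 0.28, Eif3f by 0.54 and Eif3l by 0.60. The other 5 were not called there, at 0.19 for Eif2b2, 0.18 for Eif2b5, 0.09 for Eif3b, 0.15 for Eif4enif1 and -0.11 for Eif4g1. Among genes with no tract in this window, Eif1 rose by 0.73, Eif3c by 0.53 and Eif4a2 by 0.57, and Eif4g3 was at -0.52. These were picked because they moved most, so they cannot be set against the genes with a tract. Others with no tract moved less, such as Eif2b4 at 0.17, Eif3j1 at 0.18 and Eif5b at -0.11. Whether fold changes differ with the tract was not tested. No match says only that these letters are not in this window of the annotated start.

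Genes that work beside the initiation factors were read from lists chosen for their function, and their counts stand beside the all-gene shares of 19.9% higher and 16.0% lower in the knockdown, 24.5% and 24.9% with V560F and 18.1% and 20.0% with V465F. Of 13 partners with other names, 10 rose in the knockdown, 9 with V560F and 6 with V465F, and 0 fell. Pabpc1, the poly(A)-binding protein that ties the tail of an mRNA to eIF4G, rose by 0.45 ± 0.0677, 0.54 ± 0.0678 and 0.38 ± 0.0677 (edgeR adjusted p = 5.75e-05, 2.13e-06 and 0.000222). Rack1, a ribosomal scaffold protein, rose by 0.29 ± 0.0819, 0.65 ± 0.0822 and 0.44 ± 0.082 (edgeR adjusted p = 0.00908, 2.11e-06 and 0.000308), and Dhps, the first enzyme of hypusine synthesis on eIF5A, rose with V560F by 0.62 ± 0.09 and with V465F by 0.47 ± 0.09 (edgeR adjusted p = 9.28e-06 and 0.000359). Of 12 elongation and termination factors, 8 rose in the knockdown, 7 with V560F and 7 with V465F, and 0, 1 and 1 fell. Eef1a1, which brings aminoacyl-tRNA to the ribosome, rose by 0.36 ± 0.0762, 0.63 ± 0.0764 and 0.48 ± 0.0762 (edgeR adjusted p = 0.00101, 1.34e-06 and 6.8e-05). Etf1, the release factor that reads stop codons, rose in the knockdown (0.39 ± 0.0583, edgeR adjusted p = 5.09e-05).

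Of 22 regulators of initiation, 7 rose and 7 fell in the knockdown, 5 rose and 10 fell with V560F, and 4 rose and 8 fell with V465F. The shares that rose with the mutants lie near those of all genes, and the difference in direction from the initiation factors was not tested. The eIF2 kinase gene Eif2ak2, for PKR, fell by 0.74 ± 0.0879 on the log2 scale in the knockdown, by 0.76 ± 0.0962 with V560F and by 0.41 ± 0.0931 with V465F (edgeR adjusted p = 5.05e-06, 2.3e-06 and 0.00161). Eif2ak3, for PERK, was at 0.11 ± 0.0748 in the knockdown (edgeR adjusted p = 0.259), and fell by 0.65 ± 0.0769 with V560F and by 0.59 ± 0.0764 with V465F (edgeR adjusted p = 1.1e-06 and 7.11e-06). Eif2ak1, for HRI, the kinase that relays mitochondrial stress, fell by 0.56 ± 0.104 in the knockdown, by 0.48 ± 0.112 with V560F and by 0.33 ± 0.11 with V465F (edgeR adjusted p = 0.000391, 0.0011 and 0.0206). Ppp1r15a, for GADD34, which directs removal of the phosphate from eIF2, rose by 0.50 ± 0.0911, 0.73 ± 0.0895 and 0.49 ± 0.0895 in the knockdown, V560F and V465F comparisons (edgeR adjusted p = 0.000311, 1.66e-06 and 0.000254). Gigyf2, which represses cap-dependent initiation, fell by 0.24 ± 0.075 in the knockdown, by 0.54 ± 0.077 with V560F and by 0.39 ± 0.0764 with V465F (edgeR adjusted p = 0.0169, 8.11e-06 and 0.00044). Eif4ebp1, for an eIF4E-binding protein, rose by 0.35 ± 0.0851, 0.57 ± 0.0849 and 0.42 ± 0.0848 (edgeR adjusted p = 0.00337, 1.27e-05 and 0.000667). Paip2 rose by 0.23 ± 0.067, 0.40 ± 0.067 and 0.32 ± 0.0669 (edgeR adjusted p = 0.0116, 4.25e-05 and 0.000846). In the knockdown Paip2b rose by 0.32 ± 0.0644 (edgeR adjusted p = 0.000673), and with V465F Impact rose by 0.28 ± 0.0558 (edgeR adjusted p = 0.000553).

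The translation factors of mitochondria, which initiate and extend the few proteins made inside the organelle, were called at rates near those of all genes. Of 9 genes, 2 rose and 2 fell in the knockdown, 3 rose and 2 fell with V560F, and 2 rose and 1 fell with V465F. Mtif2, the mitochondrial counterpart of the GTPase that joins the subunits, fell by 0.42 ± 0.116 in the knockdown and by 0.57 ± 0.125 with V560F (edgeR adjusted p = 0.0074 and 0.000737), and Mtif3 fell by 0.43 ± 0.118 with V560F and 0.33 ± 0.117 with V465F (edgeR adjusted p = 0.00481 and 0.0308). Tufm, the mitochondrial elongation factor, rose by 0.26 ± 0.0744 in the knockdown and 0.30 ± 0.0739 with V560F (edgeR adjusted p = 0.0106 and 0.00164).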

How the data were processed

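Total RNA was sequenced in 15 libraries, with groups and replicate numbers taken from the titles. The submitters' processing notes name the build GRCm39 and the tools HTSeq, HISAT2, fastp and R 3.2.0, without their roles; other versions, the annotation and the strand setting are not given in the sources used here. The deposited table holds the authors' raw counts per gene and FPKM, and FPKM equalled counts divided by length and table total within a relative gap of 1.9e-06.

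Counts were tested in edgeR 4.0.16 (R 4.3.3): TMM, filterByExpr, 1 mean per group and a quasi-likelihood fit to all 15 libraries (10 residual degrees of freedom), with Benjamini-Hochberg adjustment over 13074 genes. The median half-width of a 95% interval was 0.217 to 0.228 on the log2 scale. The fit was tested on simulated data. The correction for length and GC content used splines with 5 degrees of freedom (values for 95.7% of tested genes; GC content and overlaps from GENCODE M21, an older build, by name only). Alternatives were limma 3.58.1 on log2(FPKM + 1) and log2(FPKM + 0.1), DESeq2 1.42.0 and its size factors, other filters, fits and libraries left out.

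The members, lists, tests and naming rule were chosen with earlier results of these data known. Library values are given for up to 4 called members with the largest rises and falls in a comparison (mean of at least 5 CPM, groups without overlap), the highest FPKM of each role, and Eif2s1, Eif4e and Eif5a. Other lists name up to 4 called genes of lowest adjusted p. Eif1a, Eif1ax, Eif2s3x, Eif3b, Eif3d, Eif3j1, Eif3j2, Eif4a1, Eif4a3, Eif4g1, Eif4ebp1 and Paip2 were named after their values were seen. Some called genes of these lists are not printed.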

Additional observations from a re-analysis of the deposited data

How the results depend on the processing

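With DESeq2 or its size factors the members' counts stayed within 1.5 times. The deposited FPKM, which is relative to each table column's total, lowered the median of all genes to -0.09 in the knockdown, -0.16 with V560F and -0.11 with V465F (pseudocount 1; -0.13, -0.26 and -0.17 with 0.1), and of called genes 22.5%, 17.8% and 18.4% were higher in place of 55.4%, 49.6% and 47.5%; the members' median stood above that of all genes by 0.21, 0.26 and 0.19, beside 0.26, 0.42 and 0.28. On it 17 members rose and 3 fell in the knockdown (17 and 3 with 0.1), 19 rose and 5 fell with V560F (18 and 6), and 17 rose and 5 fell with V465F (17 and 5), and V560F values turned to -0.05 for Eif2s1 (-0.05) and to -0.07 for Eif4e3 (-0.08). With only genes of 5 FPKM in 3 libraries, 20 rose and 2 fell in the knockdown, and 4 fell with V560F. Members that fell numbered 2 in the knockdown with only the 6 libraries compared, 0 with the length correction, and 2 with V560F library 2 and wild-type library 3 left out; 2 with V560F under the length correction and 2 under length and GC; and 1 with V465F under the length correction. With no filter, 4 were lower in V465F than in V560F, beside 337 of all genes. The cause of these moves was not tested.

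Leaving out 1 library gave 26 to 33 higher and 0 to 1 lower in the knockdown, 31 to 36 and 1 to 2 with V560F, 23 to 29 and 1 to 2 with V465F, 0 to 7 lower in V465F than in V560F, and 40 to 43 over all groups. The 7 came without V560F library 1, where 509 of all genes were called lower. Without V560F library 2 and wild-type library 3 together, 34, 35 and 32 members rose. Replicate numbers did not pair the libraries (correlations of same-numbered deviations -0.161 to 0.083); with the replicate block 32, 34 and 29 rose and 42 differed over all groups, as without it. Of 44 values of named genes, 0 changed sign outside the FPKM scale.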
